A study of Mus musculus with 4 samples.

Results

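The genes described here are the mouse Zfp genes, those whose symbol is Zfp followed by digits only, as sources of circular RNA (circRNA) in articular chondrocytes, the cells of joint cartilage. A circRNA is a closed RNA loop joined by a back-splice, and each was measured by the sequencing reads that cross its back-splice junction. A circRNA was placed in a host gene when both junction ends lay inside exactly 1 RefSeq coding gene, with 1 bp of tolerance. Of 40909 circRNAs, 39153 were placed in this way in 6755 coding hosts, and 332 of them lay in 96 Zfp genes. The study compared 2 libraries of primary mouse articular chondrocytes given recombinant human interleukin-1β (IL-1β) at 10 ng/ml for 24 h with 2 control libraries of the same cell type. IL-1β is a cytokine that drives inflammation and cartilage breakdown in joints. Cells of all 4 libraries were low-passage cells, thawed and plated before use, and their total RNA was depleted of ribosomal RNA and treated with RNase R, an enzyme that degrades linear RNA. The control samples carry the same treatment text as the IL-1β samples, so the groups were taken from the source label. The labels name no strain, age or number of animals and leave unsaid whether a group's libraries came from separate cultures, so the p-values speak only to how far these libraries scatter, and that scatter may be technical.

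Most Zfp genes encode proteins with zinc fingers of the Cys2His2 type, small folds held by a zinc ion that bind DNA and, in some members, RNA. Many carry a KRAB domain, which recruits the co-repressor Trim28 to silence transposable elements and nearby genes, and these tend to lie in tandem clusters that arose by duplication. Others, such as the hosts that lead here, are large conserved genes with roles in transcription, chromatin and RNA handling. The human counterparts of Zfp609 and Zfp292 are among the better known sources of circRNA.

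The regulatory sequence of the hosts that have an entry in the promoter table used was examined first. These included 13 of the 20 hosts with the most reads, and Zfp516 and Zfp609 had no entry. NF-κB is the transcription factor through which IL-1β is best known to act, and its consensus was looked for on both strands in the 250 bases before each start site. The consensus was found in 10 of 98 windows of Zfp hosts (10.2%, 77 hosts matched in RefSeq) and in 7.25% of all 32851 windows. The sequence GGGCGG, of G and C only, was found in 58.2% and 32.7% of the same windows. Neither difference was tested. The window of the upstream Zfp148 start site (GRCm38.p6, chr16:33380525-33380774, plus strand) holds overlapping matches of the NF-κB consensus on both strands. They run from position -177, counted from the start site, and are shown in capitals. The window before the other Zfp148 start site (chr16:33381052-33381301) holds no match of this consensus. The window of Zfp292 (chr4:34882949-34883198, minus strand), the host of the circles that passed the test below, also holds none. The first and the last are shown 5′ to 3′, Zfp148 as a leading host with a match and Zfp292 as the host of the called circles. A match of letters is a description and not a binding site.
Zfp148: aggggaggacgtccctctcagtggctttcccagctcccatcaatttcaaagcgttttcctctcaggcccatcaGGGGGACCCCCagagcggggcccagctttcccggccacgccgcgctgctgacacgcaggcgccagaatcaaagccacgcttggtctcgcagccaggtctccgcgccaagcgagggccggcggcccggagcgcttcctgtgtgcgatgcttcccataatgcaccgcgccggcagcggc
Zfp292: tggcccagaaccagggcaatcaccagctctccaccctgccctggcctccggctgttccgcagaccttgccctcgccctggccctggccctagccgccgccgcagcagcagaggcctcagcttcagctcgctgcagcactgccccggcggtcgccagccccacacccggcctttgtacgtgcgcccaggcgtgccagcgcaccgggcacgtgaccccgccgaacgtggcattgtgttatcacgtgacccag

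The libraries held 895774 and 980542 junction reads under IL-1β against 1198010 and 1203855 in control. Of the chondrocyte markers examined, 5 of 19 had a circRNA (26.3%, against 30.8% of all coding genes). The defining genes Acan, Col2a1 and Sox9 had 0 junction reads. A gene can be expressed without making a circRNA, so this does not measure its mRNA. The summed level of the chondrocyte markers was 273 and 334 CPM under IL-1β against 413 and 246 CPM in control, where CPM is junction reads scaled to a common library size. Of the list's 1324 reads, Sox5 gave 936 and Sox6 375. Their log2 changes under IL-1β were 0.11 ± 0.37 and -0.69 ± 0.44 (SE), and neither passed the test below. The macrophage markers summed to between 0 and 12.9 CPM, with Ptprc, Adgre1, Csf1r, Cd68 and Lyz2 at 0. The fibroblast markers summed to 104 and 67.6 CPM under IL-1β and 146 and 230 in control, with Fap and Thy1 at 0. The osteoblast markers summed to 377 and 375 CPM under IL-1β and 275 and 450 in control. All of these reads came from Runx2, with Alpl, Bglap, Ibsp and Sp7 at 0. The endothelial markers summed to 156 and 119 CPM under IL-1β and 99.7 and 123 in control, with Cdh5, Kdr and Tek at 0. The part of such cells in the results below was not tested.

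The Zfp genes gave 90754 junction reads in all. Their share of a library's junction reads was 2.19% and 2.03% under IL-1β and 2.15% and 2.12% in control. The groups overlapped, and their means of 2.11% ± 0.114 and 2.13% ± 0.0242 (SD, n = 2 each) differed by -0.0217 points (exact permutation test, two-sided p = 1, where 2 against 2 libraries cannot go below 0.3333). Intervals and floors given below cover counting error only, since PCR copies are not independent molecules. Between 147 and 172 Zfp circRNAs were read in a library, from 57 to 65 genes.

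A circRNA was read from a minority of the family. Of 367 coding Zfp genes in the annotation, 96 (26.2%) had at least 1 circRNA, against 30.8% of all 21900 coding genes. The share differed by where a gene lay and by its length. Of 212 Zfp genes with another Zfp gene within 100 kb, 41 (19.3%) had a circRNA, and these gave 2858 reads. Of 155 Zfp genes with no other within 100 kb, 55 (35.5%) had a circRNA, and these gave 87896 reads, 96.9% of the total. The genes with a near neighbour were shorter, with a median length of 15819 bp against 20178 bp. By length, genes under 10 kb had a circRNA in 3 of 30 cases with a neighbour and 1 of 25 without, and genes of 10 to 20 kb in 16 of 95 and 11 of 52. Among genes of 20 to 50 kb, 21 of 81 with a neighbour and 21 of 46 without had a circRNA, and among genes of 50 kb or more 1 of 6 and 22 of 32. How reads that fit several places were counted is not given in the sources used here, so values of genes in clusters of similar copies are uncertain. Zfp genes that overlap each other, such as Zfp978 and Zfp988, all fall in the group with a neighbour. A circRNA inside such an overlap lay in more than 1 coding gene and was not placed. The effect of this on the shares was not tested. By chromosome, 15 of 90 Zfp genes on chromosome 7 and 7 of 41 on chromosome 17 had a circRNA, against 6 of 11 on chromosome 18, whose genes gave 40.5% of the Zfp reads.

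**Figure D1:**
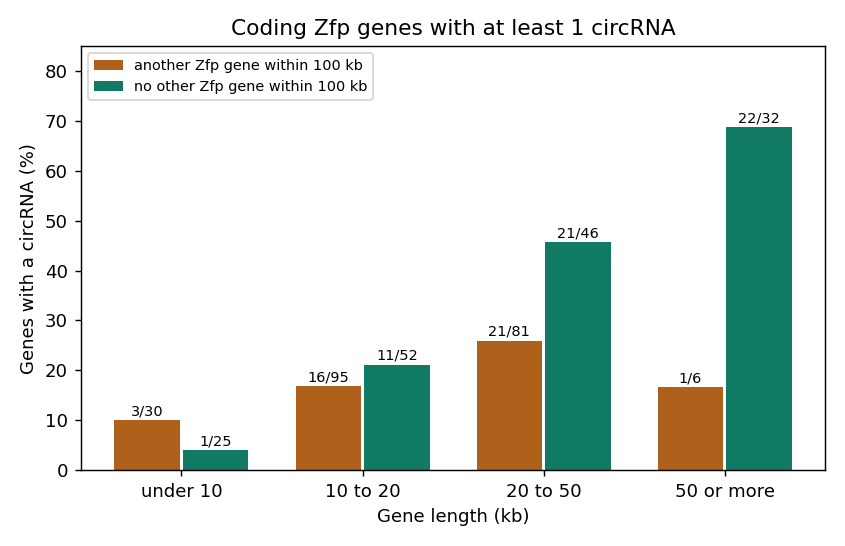
Percent of coding Zfp genes with at least 1 circRNA (vertical axis) by gene length in kb (horizontal axis), for genes with another Zfp gene within 100 kb (brown) and without (green), with the counts above each bar. The tallest bar is that of genes of 50 kb or more with no neighbour, 22 of 32.

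The reads were concentrated in few genes. Zfp516, which promotes the brown fat gene programme, and Zfp148, a Krüppel-type transcription factor also called ZBP-89 that binds GC-rich promoters, gave 65.7% of the Zfp reads and ranked 11 and 12 among all coding hosts. The next were Zfp827, which recruits a chromatin remodelling complex to telomeres, at rank 97, Zfp292 at rank 185 and Zfp609, a partner of the cohesin loader Nipbl and of Integrator, at rank 282. The 10 leading hosts held 91.6% of the reads and the 20 leading hosts 96.3%. At the other end, 39 of the 96 hosts had under 20 reads over the 4 libraries, and 30 of these were read in a single library. Most circRNAs were also seen in a single library: 185 of 332 (55.7%) were read in 1 library, with 1.90% of the reads, and 71 (21.4%) in all 4, with 86.6% of the reads. Over all placed circRNAs 57.8% were read in 1 library and 17.2% in all 4.

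Zfp circles tended to be few per gene. A Zfp host had 3.46 circRNAs on average and a median of 2, against 5.80 and 3 over all coding hosts, and 40.6% of Zfp hosts had only 1, against 27.2%. In 11 of the 21 Zfp hosts with at least 200 reads (52.4%) a single circle held over 75% of the reads, against 27.2% of all 2196 hosts at that depth. The median distance between junction ends was 7493 bp for Zfp circRNAs and 10448 bp for all placed ones. Of 222 Zfp circles whose host has a strand in the promoter table used, 221 lay on the host's strand. The deposited table gives no exons, so the exons inside a circle are not stated, and genome positions here are in mm10.

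Zfp516 (chromosome 18, 82909688 to 83005314) rested on 1 circle, circRNA.15947 (82955524 to 82957449, plus strand, 1926 bp between its ends). It had 5892 and 5557 reads under IL-1β against 7193 and 10017 in control, between 94.1% and 96.1% of the gene's reads in each library. The host stood at 6993 and 6149 CPM under IL-1β and at 6436 and 9297 in control. Control 2 was the highest library, and control 1 lay between the IL-1β libraries. Its log2 change under IL-1β was -0.26 ± 0.19 (SE; adjusted p = 0.938 in edgeR's quasi-likelihood test), and 0.050 without control 2. The next most abundant circles, circRNA.15951 and circRNA.15953, shared an upstream end at 82986744. The first had 163 and 227 reads under IL-1β against 120 and 200 in control, and the second 155 and 98 against 141 and 308. Neither passed the test (adjusted p = 0.886 and 1, edgeR).

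Zfp148 (chromosome 16, 33380775 to 33503903) gave 13 circles, of which 5 ended at position 33434974 and held 95.2% of its reads. The host stood at 7437 and 6679 CPM under IL-1β and at 8607 and 5663 in control, so that both IL-1β libraries lay between the controls. The host's log2 change was -0.02 ± 0.20 (SE; adjusted p = 1 in edgeR), and 0.36 without control 1. Its leading circle, circRNA.11931 (33421321 to 33434974, plus strand), began 40.5 kb and 40.0 kb downstream of the gene's start sites in RefSeq. That circle had 4584 and 4554 reads under IL-1β against 7074 and 6092 in control. Scaled to CPM it stood at 5039 and 4668 under IL-1β and at 6055 and 4987 in control, so the groups overlapped. Its log2 change of -0.19 ± 0.19 (SE) did not pass.

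Zfp148 also showed how reads divided between near-identical junctions. The circle circRNA.11936 starts 5 nt downstream of circRNA.11931 and shares its other end. It had 1615 and 1553 reads under IL-1β, 2400 in control 1 and 0 in control 2. Where it was read it took 26.1%, 25.4% and 25.3% of the pair's reads, and in control 2 none, which by counting error alone allows up to 0.0630% (95% Wilson interval). Summed, the pair had 6199 and 6107 reads under IL-1β against 9474 and 6092 in control, for a log2 change of -0.0017 ± 0.26 (SE; adjusted p = 1 in edgeR). A further Zfp148 circle, circRNA.11938 (33434626 to 33468183), had 34 and 49 reads under IL-1β but 0 in both controls, at least 17.4-fold higher against a floor of 3 reads per library (adjusted p = 0.886 in edgeR, 0.00165 in DESeq2). The circle circRNA.11927 had 0 reads in both IL-1β libraries against 8 and 26 in control, at least 4.41-fold lower (adjusted p = 0.886 in edgeR).

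Zfp292 (chromosome 4, 34803110 to 34882983, minus strand) held the only Zfp circles that passed the test, and they formed a pair 3 nt apart. The 4 circles that share the end at position 34839332 held 98.7% of its reads. The longer circle used 34848032 as its other end under IL-1β (circRNA.27295), with 518 and 445 reads, and had 0 reads at that junction in both controls. In control it used 34848035 (circRNA.27296), with 572 and 736 reads, and had 0 there in both IL-1β libraries. The first was at least 204-fold higher and the second at least 171-fold lower under IL-1β (adjusted p = 0.0263 for each, edgeR). The position that differs is the upstream end of the circle in the direction of transcription. Summed, the pair had 518 and 445 reads under IL-1β against 572 and 736 in control. The log2 change was -0.09 ± 0.25 (SE; adjusted p = 1 in edgeR), so the called difference lay in the position of the end, and the summed amount did not pass. The same alternative ends occurred in a rarer longer circle that reaches 34816274. There circRNA.27290, with the end at 34848032, had 4 reads in IL-1β 1, and circRNA.27291, with the end at 34848035, had 4 in IL-1β 2. Both ends were thus read under IL-1β. Neither junction was read in control, so a division by treatment could not be seen in this circle.

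**Figure D2:**
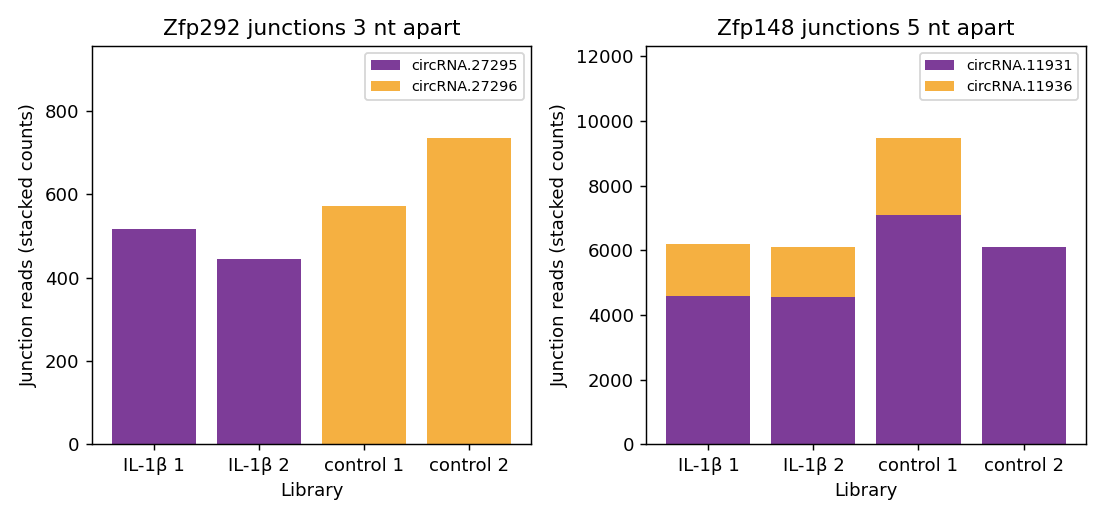
Junction reads (vertical axis, stacked counts) in each library for the near-identical junctions of Zfp292, 3 nt apart (left), and of Zfp148, 5 nt apart (right), each junction in 1 colour. In Zfp292 each library has 1 colour, split by treatment, while in Zfp148 control 2 alone lacks circRNA.11936.

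Splits of this kind occurred elsewhere in the series without following treatment. Among all circRNAs there were 133 pairs within 5 nt at both ends with at least 100 reads in sum. In 116 of these some library read both junctions, and in 17 no library did: Zfp292 was the 1 pair divided by treatment, 13 were divided otherwise over the 4 libraries and in 3 some library read neither. At any depth, 3 of 294 pairs were divided by treatment. Control 2 lacked 1 junction of a pair that the other 3 libraries read at both junctions in 6 of the 133 pairs, against 2, 1 and 1 for IL-1β 1, IL-1β 2 and control 1. Of Zfp junctions 12 (3.61%) lay within 5 nt of another, in 6 pairs, against 1.41% of all placed circRNAs. The smaller pairs were in Zfp276, Zfp644, Zfp692 and again Zfp292. In Zfp692, circRNA.3763 had 10, 25 and 16 reads in the other libraries and 0 in control 2, where circRNA.3764, 3 nt away, had 9. The cause of these splits was not tested.

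The short Zfp292 circle, circRNA.27294 (34839332 to 34839986, 655 bp), had reads in every library. It stood at 463 and 697 CPM under IL-1β and at 324 and 309 in control, so the groups did not overlap. Its log2 change was 0.87 ± 0.28 (SE; unadjusted p = 0.0207, adjusted p = 0.886, edgeR), which did not pass, and it was 0.52 without IL-1β 2 (unadjusted p = 0.190, edgeR). As a share of the short and long circles together it made up 44.8% and 60.4% under IL-1β and 39.9% and 33.9% in control, a difference of 15.7 points (exact permutation p = 0.3333, the smallest that 2 against 2 libraries allow). The host as a whole stood at 1138 and 1207 CPM under IL-1β and at 834 and 1005 in control. The log2 change was 0.35 ± 0.20 (SE; adjusted p = 0.877 in edgeR).

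Over all Zfp circles, 133 of 332 had the 20 reads needed for the test, and 2 passed an adjusted p of 0.05 in edgeR, 1 higher and 1 lower under IL-1β, both in the Zfp292 pair. Over all circRNAs tested 0.0196% passed, 3 of 15333, with 0.00652% higher and 0.013% lower. The 2 calls became 0 without IL-1β 1, 0 without IL-1β 2, 0 with a filter of 50 reads and 1 with libraries scaled by the depth behind the authors' normalised values. Both calls stayed with a filter of 200 reads. At an unadjusted p under 0.05 there were 7 Zfp circles (5.26%), against 3.44% of all tested, of which 6 were higher (1.83% of all tested) and 1 lower (1.62% of all tested). DESeq2 called 3 of the 133, against 0.659% of all, and 16 before adjustment, against 8.99% of all. Groups did not overlap in 25 circles higher under IL-1β (18.8%; 16.4% of all tested) and 27 lower (20.3%; 17.2% of all tested). The log2 change was above 0 in 61 circles (48.3% of all tested), and its median was -0.10, against -0.05 over all circRNAs tested. With reads in both libraries of 1 group and 0 in the other group there were, of the 133, 6 Zfp circles present under IL-1β (3.36% of all tested) and 5 present in control (4.69% of all tested), shares near those over all circRNAs.

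**Figure D3:**
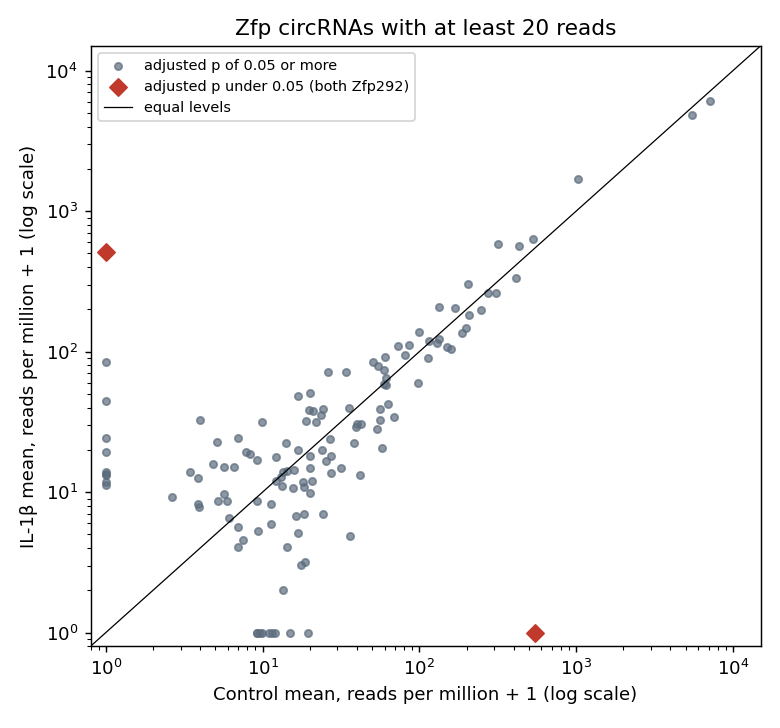
Mean level under IL-1β (vertical axis) against mean level in control (horizontal axis) of the 133 tested Zfp circRNAs, in CPM plus 1 on log scales, with the line of equal levels. The red diamonds are the Zfp292 junctions 3 nt apart. They are among the 10 circles unread in both IL-1β libraries and the 10 unread in both controls, which lie along the lower and left edges, and the scatter of the rest around the line widens towards low levels.

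At the level of genes no Zfp host passed. Of 57 hosts with at least 20 reads, 0 had an adjusted p under 0.05 in edgeR (0.0% of all 4815 hosts tested), 0 an unadjusted p under 0.05 (4.57% of all, 2.1% higher and 2.47% lower), and DESeq2 gave 0 after adjustment and 2 before it, Zfp141 and Zfp292 (0.955% and 10.9% of all). The log2 change was positive in 29 of the 57, with a median of 0.06, against 48.0% and -0.03 over all hosts. Scaled by the depth behind the authors' normalised values, the medians were -0.15 and -0.24, so the sign of the Zfp median rests on the scaling. Groups did not overlap in 11 hosts higher under IL-1β (19.3%; 17.1% of all) and 10 lower (17.5%; 18.9% of all). In 20 of the 21 hosts with at least 200 reads the absolute log2 change was under 1, and 20 of them were read in all 4 libraries. The exception to both was Zfp644, a partner of the histone methyltransferase G9a, with 101 and 61 reads under IL-1β against 65 and 0 in control (log2 change 1.65 ± 1.29, SE). In bulk samples fewer cells of a type and less RNA per cell cannot be told apart.

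**Figure D4:**
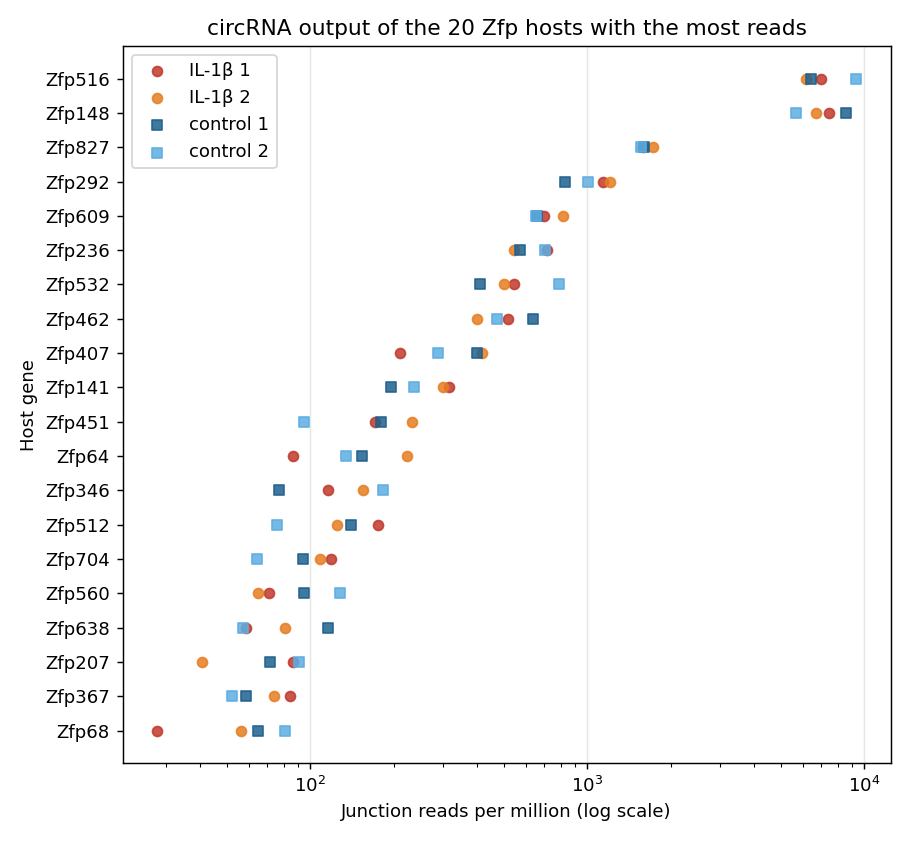
Level in each library of the 20 Zfp hosts with the most reads (rows), in CPM on a log scale, with circles for IL-1β and squares for control. Zfp516 and Zfp148 stand apart at the top, and within most rows the 2 groups are interleaved.

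Zfp827 (chromosome 8, 79027486 to 79193768) had the most circles of the Zfp hosts, 24, formed from 7 upstream and 10 downstream ends. It stood at 1592 and 1723 CPM under IL-1β and at 1607 and 1564 in control, with a log2 change of 0.06 ± 0.18 (SE; adjusted p = 1 in edgeR) that became -0.15 on the authors' own depth scale. Its leading circle, circRNA.37788 (79118175 to 79136663), held 32.3% and 37.1% of its reads under IL-1β and 37.1% and 18.5% in control, so control 2 was the low library. The upstream end at 79060250, 7 of whose circles were read, joined most often to 79076538 (circRNA.37771, 967 reads) and 79092066 (circRNA.37772, 837 reads). The circle circRNA.37786 had 85 and 112 reads under IL-1β against 172 and 207 in control (log2 change -0.60 ± 0.33, SE; adjusted p = 0.886 in edgeR).

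**Figure D5:**
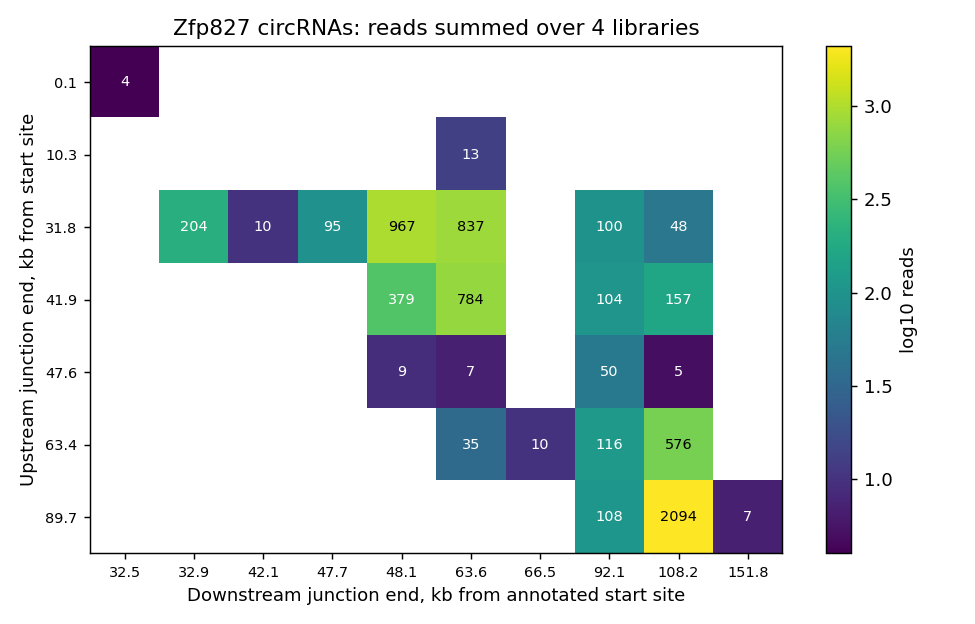
Reads of each Zfp827 circRNA summed over the 4 libraries (number and colour, log10 scale) by its upstream junction end (rows) and downstream end (columns), both in kb from the annotated start site. The pairs repeat the same few ends, with the most reads, 2094, for circRNA.37788.

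Zfp609 (chromosome 9, 65691578 to 65827564) rested on circRNA.39923 (65794622 to 65795495, minus strand, 874 bp), which held 84.2% of its reads. That circle had 547 and 641 reads under IL-1β against 650 and 616 in control. The host stood at 698 and 817 CPM under IL-1β and at 657 and 654 in control, so the groups did not overlap. Its fitted log2 change was 0.21 ± 0.21 (SE; adjusted p = 1 in edgeR), and -0.0016 under that other scaling. Its paralogue Zfp608, with 193 reads, stood at 38.2 and 34.3 CPM under IL-1β and 70.5 and 38.8 in control. The log2 change of Zfp608, -0.59 ± 0.64 (SE), did not pass.

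Zfp532, a gene fused to NUT in some carcinomas, stood at 543 and 499 CPM under IL-1β and at 411 and 791 in control. Control 2 was the highest library, and the log2 change of -0.21 ± 0.32 (SE) was 0.36 without it. Its leading circle circRNA.15597 (chromosome 18, 65638750 to 65656632) had 277 and 212 reads under IL-1β against 179 and 483 in control. Zfp462, a chromatin regulator of development, stood at 516 and 401 under IL-1β and 635 and 472 in control, again overlapping (log2 change -0.27 ± 0.26, SE). Its leading circle circRNA.27584 (chromosome 4, 55050186 to 55060237) held 75.7% of its reads.

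Zfp236 stood at 717 and 541 CPM under IL-1β and at 572 and 701 in control. The log2 change was -0.02 ± 0.24 (SE). It gave 21 circles, and 8 of them shared the upstream end at position 82682287 of chromosome 18, which held 85.5% of its reads. Its leading circle circRNA.15939 had 267 and 225 reads under IL-1β against 341 and 395 in control. The circle circRNA.15945, which shares that end, had 75 and 57 reads under IL-1β against 28 and 32 in control (log2 change 1.48 ± 0.54, SE; adjusted p = 0.886 in edgeR). Scaled to CPM, the groups overlapped in the first circle and not in the second, and the difference between the circles was not tested.

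Zfp407, which takes part in adipocyte gene expression, stood at 210 and 416 CPM under IL-1β and at 399 and 288 in control. The 2 IL-1β libraries were the lowest and the highest of the 4. Of the 400 reads in IL-1β 2, 163 came from circRNA.15960, which had 0 reads in the other 3 libraries. The circle circRNA.15963 (chromosome 18, 84315806 to 84552984), whose ends lie 237.2 kb apart, had 17 and 20 reads against 86 and 49 (log2 change -1.53 ± 0.66, SE; adjusted p = 0.886 in edgeR). The leading circle circRNA.15962 had 99 and 103 reads against 214 and 138 (log2 change -0.47 ± 0.37, SE).

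Zfp141 (chromosome 7, 42473386 to 42505778) had the lowest unadjusted p of the hosts. It stood at 318 and 302 CPM under IL-1β and at 195 and 237 in control, 1.43-fold higher without overlap (log2 change 0.52 ± 0.27, SE; unadjusted p = 0.0865, adjusted p = 0.877, edgeR). A single circle, circRNA.35096 (42488470 to 42490276), held 99.2% of its reads. On the lower side Zfp560 stood at 70.7 and 64.5 CPM under IL-1β and at 94.5 and 128 in control (log2 change -0.72 ± 0.43, SE). Zfp68 stood at 28.1 and 56.2 against 64.5 and 81.1 (log2 change -0.78 ± 0.58, SE). The groups did not overlap in either gene, and neither passed the test.

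Zfp451, a SUMO ligase, stood at 171 and 232 CPM under IL-1β and at 181 and 95.2 in control (log2 change 0.55 ± 0.40, SE). Zfp346, which binds double-stranded RNA, stood at 116 and 155 under IL-1β and 77.4 and 182 in control. Zfp638, which silences unintegrated retroviral DNA, stood at 58.4 and 81.2 under IL-1β and 116 and 57.3 in control. In these 3 genes the groups overlapped. Zfp207, a spindle assembly factor that binds Bub3, spread 302 reads over 11 circles, with 23.8% in the leading one, and stood at 86.4 and 40.6 under IL-1β and 71.3 and 90.8 in control.

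Of the remaining leading hosts, Zfp64 stood at 86.4 and 223 CPM under IL-1β and 153 and 134 in control, so the IL-1β libraries lay outside the controls on both sides. Zfp512 stood at 176 and 125 under IL-1β and 140 and 75.8 in control. Zfp704 stood at 119 and 108 against 93.7 and 64.3, and Zfp367, whose reads all came from circRNA.7793, at 84.2 and 73.9 against 58.4 and 52.0. The groups did not overlap in Zfp704 and Zfp367, whose log2 changes of 0.52 ± 0.42 and 0.52 ± 0.48 (SE) did not pass.

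Hosts with few reads had the widest changes and errors. Zfp266 had 7 and 0 reads under IL-1β against 36 and 33 in control (log2 change -2.91 ± 1.76, SE; adjusted p = 0.877 in edgeR), and its circle circRNA.38889 had 0 in both IL-1β libraries against 32 and 12 in control, at least 5.84-fold lower. Zfp410, whose main known target is the remodeller gene Chd4, had 20 and 30 reads under IL-1β against 0 and 11 in control. Zfp777 had 21 and 17 reads under IL-1β against 36 and 68 in control. Zfp423, a determinant of the preadipocyte fate, had 14 and 4 against 30 and 37. Among KRAB genes known as silencers, Zfp568, a repressor of a placental Igf2 transcript, had 19 and 21 reads under IL-1β against 36 and 0 in control, Zfp445, a guardian of imprints, 14 in control 1 alone, and Zfp809, a silencer of retroviruses, 12 in IL-1β 1 alone. Zfp568 did not pass (log2 change 0.48 ± 1.77, SE), and the counts of Zfp445 and Zfp809 were under the 20 reads needed for the test. Of the 57 tested hosts, 19 had 0 reads in at least 1 library. Within groups, the median coefficient of variation was 41.6% over the tested Zfp hosts and 20.2% over those with at least 200 reads, against 32.1% and 17.2% over all hosts.

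The partners of the KRAB proteins and the other zinc finger families were described as lists. Of 20 genes of the KRAB co-repressor machinery, 17 had a circRNA and 14 were tested, of which 7 had a log2 change above 0 (median 0.09), and 0 passed an adjusted p of 0.05 in edgeR. Its most abundant host was Pphln1, a subunit of the HUSH silencing complex, with 762 and 635 reads under IL-1β against 1066 and 814 in control. Scaled to CPM, Pphln1 stood at 855 and 661 against 916 and 717, with overlap (log2 change -0.11 ± 0.24, SE). All 8 tested Zbtb genes had a log2 change above 0 (median 0.47), and 0 passed. The most abundant of them, Zbtb20 and Zbtb25, stood near 0, at 0.01 ± 0.31 and 0.16 ± 0.46 (SE). Signs under the other scalings are not given here for these lists. Of 6 tested Zkscan and Zscan genes 1 was positive, with a median of -0.47, and 0 passed. Of 5 tested Klf, Sp and Egr genes 3 were positive, and of 7 tested Prdm genes 5, again with 0 passing. No tested gene passed in the Gli and Glis, Zeb, Zfhx, Ikzf, Zc3h, Zcchc, Zfyve or Zdhhc lists either. The log2 change was above 0 in 0 of 4 tested Gli and Glis genes and 2 of 2 Zeb genes. For Zfhx it was 0 of 2, for Ikzf 1 of 1, for Zc3h 7 of 9 and for Zcchc 4 of 6. For Zfyve it was 1 of 4 and for Zdhhc 7 of 9. Across these lists and the machinery, 1 gene, Morc2a, had an unadjusted p under 0.05 in edgeR. Over all 4815 hosts tested, 48.0% had a log2 change above 0, 0.0% passed and 4.57% had an unadjusted p under 0.05 (edgeR).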

How the data were processed

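Back-splice junction reads were measured in 2 IL-1β and 2 control libraries. Per the file headers, the deposited values are counts of junction reads for each circRNA and library, and SRPBM, a depth-scaled signal that the authors made and that equals each count over 1 constant per library. The submitters' processing notes name mm10 and Bowtie2. The tool that called circRNAs is not given in the sources used here, and the same holds for filters and duplicates. Values in the tables of single libraries were identical to those of the table for the series.

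Junction ends were placed in RefSeq coding genes (GRCm38.p6), and reads were summed per host. Counts of every circRNA and host that reached 20 reads in sum were tested by the quasi-likelihood method of edgeR 4.0.16 (R 4.3.3; TMM factors, no covariate) with Benjamini-Hochberg adjustment over all tested. A standard error is the log2 change over the root of edgeR's F statistic. DESeq2 1.42.0, other scalings, filters and left-out libraries were alternatives. Fold bounds take 3 reads as the floor of each library and reflect counting error alone. Other values came from scipy 1.17.1 under Python 3.11.15.

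Named hosts were the 20 with the most reads and the 5 tested in each direction with the lowest p. Named circles were the leading ones of 12 hosts, the 5 in each direction with the lowest p, those past the threshold and their near-identical neighbours. Other genes and circles were named after their values were seen. The members and lists were chosen with earlier results of these data known, among them the Zfp292 calls. Linear mRNA was not analysed here, nor were junction sequences, for which no genome was used.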

Additional observations from a re-analysis of the deposited data

How the results depend on the processing

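With 2 libraries a group, depth and spread limit the calls, and most circles had too few reads to test. The 2 calls, both in the Zfp292 pair, became 0 when junctions within 5 nt were summed, which merges them, and 0 with a filter of 50 reads. The 2 calls stayed with a filter of 200 reads, with library totals and in DESeq2. They became 1 with libraries scaled by the depth behind SRPBM (the lower circle), and 4 with filters of 10 reads or of 1 read, where circRNA.11938 and circRNA.15960 joined. With 1 library left out the count ranged from 0 to 3, at 0 without IL-1β 1 or IL-1β 2, and where a group then had 1 library it was assumed to vary like the other group. With the replicate block there were 4 calls, circRNA.11936 and circRNA.15960 being added, both with counts set by 1 library. The labels do not say that the numbers pair the samples, and deviations of same-numbered libraries correlated at -0.03 over 3100 circRNAs and 0.03 over 2196 hosts. The count of called hosts was 0 under every alternative run, block included. Under SRPBM depth the median over all hosts went from -0.03 to -0.24 on the log2 scale, and that of Zfp hosts from 0.06 to -0.15.

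Log2 changes that reversed, none of which had passed, were these. The block gave 0.059 for circRNA.15597, 0.014 for Zfp148 and -0.030 for Zfp64. Library totals gave 0.025 for Zfp148 and 0.031 for Zfp236. SRPBM depth gave -0.15 for Zfp827, -0.0016 for Zfp609, -0.13 for Zfp64 and -0.055 for Zfp346. With 1 library left out the ranges were -0.46 to 0.050 for Zfp516, -0.27 to 0.36 for Zfp148, -0.23 to 0.17 for Zfp236, -0.56 to 0.36 for Zfp532, -0.71 to 0.28 for Zfp407, -0.73 to 0.63 for Zfp64, -0.39 to 0.82 for Zfp346, -0.72 to 0.32 for Zfp638 and -0.996 to 0.092 for Zfp207. For circles they were -0.066 to 1.08 for circRNA.37788, -0.60 to 0.77 for circRNA.15597, -0.62 to 0.11 for circRNA.27584, -0.47 to 0.98 for circRNA.19168, -0.95 to 0.043 for circRNA.22206 and -0.29 to 13.77 for circRNA.11936. The difference in the Zfp share of reads was -0.022 points, -0.102 to 0.059 with 1 library left out and 0.080 without Zfp516. The cause of these reversals was not tested.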
